A study of Mus musculus with 6 samples.

Results

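Acetylated regions of alveolar macrophages (AMs) that lay in intergenic sequence more than 50 kb from any annotated gene start numbered 1168 of the 29277 regions shared by both Cell Signaling replicates (3.99%), and they covered 1.86 Mb (3.28% of the bases of all shared regions). Regions were made by merging the overlapping H3K27ac peaks of both Cell Signaling replicates on chromosomes 1 to 19 and X and keeping merged regions that held a peak of each replicate. A region was a far intergenic region when its midpoint lay outside every gene body and over 50 kb from the nearest transcription start site (TSS) of a protein-coding or long non-coding gene (GENCODE vM21 basic annotation, mm10). The peaks of replicate 1 alone gave 2292 such regions and those of replicate 2 alone gave 2141. The AMs were sorted by flow cytometry from the bronchoalveolar lavage of WT mice, which were 9-wk-old C57BL/6J animals by the study's methods. All libraries came from this 1 genotype and cell type, with no treatment and no contrast of conditions. The 6 samples were 1 library made with the Active Motif antibody (#39135), 2 libraries made with the Cell Signaling antibody (#8173) and 3 inputs without antibody, which entered only through the authors' peak calling. Whether the replicates are different mice is not stated in the labels, and their spread may therefore be technical. H3K27ac was measured by HT-ChIPmentation, in which DNA bound to the modified histone is pulled down and tagged for sequencing while still on the antibody beads, so that few cells suffice. Antibody, depth and any other difference in preparation or sequencing cannot be told apart in the comparison with the single Active Motif library. The study's methods list H3K27ac samples under different sonication settings. Regions are not replicates, and the tests over regions describe these libraries only.

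H3K27ac, acetylation of lysine 27 on histone H3, is laid down by the acetyltransferases p300 and CBP at active promoters and active enhancers. Enhancers are stretches of DNA that bind transcription factors and raise the transcription of a gene in cis, often across large distances and past other genes, through contacts in 3-dimensional space. In macrophages the ETS factor PU.1 opens many enhancers together with partners such as C/EBP, AP-1 and RUNX factors. Acetylation far from a gene does not by itself name the gene that is regulated, so the nearest gene is given below only as a landmark.

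The sequences that follow are windows of 200 bp around the summit of the strongest replicate 1 peak, where the authors' caller placed the highest signal. They are shown because they are the windows in which motifs were counted. Bases in capitals belong to a match of any of 24 transcription factor motifs on either strand, and the remaining bases are in lower case (mm10 sequence read 5′ to 3′). The first 5 are the far intergenic regions with the highest fold enrichment in both replicates, the sixth held the most different motifs (AP-1, NRF2, MAF, CEBP and ISRE), and the last 3 were chosen after their values were seen as the strongest regions with a PU.1 motif.
Klf6 distal region A (chr13:5778814-5779013, plus strand): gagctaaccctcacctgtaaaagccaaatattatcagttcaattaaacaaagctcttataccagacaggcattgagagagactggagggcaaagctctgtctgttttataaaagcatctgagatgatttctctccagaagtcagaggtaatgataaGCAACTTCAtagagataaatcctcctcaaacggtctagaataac
Klf6 distal region B (chr13:5802834-5803033, plus strand): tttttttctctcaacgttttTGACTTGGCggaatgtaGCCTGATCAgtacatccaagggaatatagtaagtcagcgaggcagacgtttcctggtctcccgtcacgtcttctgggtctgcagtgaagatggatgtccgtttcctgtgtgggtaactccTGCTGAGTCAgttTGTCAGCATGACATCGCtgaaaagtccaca
Map3k7cl distal region (chr16:87616008-87616207, plus strand): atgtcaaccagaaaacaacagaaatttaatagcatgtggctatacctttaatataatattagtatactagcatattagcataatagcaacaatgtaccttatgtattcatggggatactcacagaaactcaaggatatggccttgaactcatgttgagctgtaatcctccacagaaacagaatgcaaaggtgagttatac
Pkdcc distal region (chr17:83276979-83277178, plus strand): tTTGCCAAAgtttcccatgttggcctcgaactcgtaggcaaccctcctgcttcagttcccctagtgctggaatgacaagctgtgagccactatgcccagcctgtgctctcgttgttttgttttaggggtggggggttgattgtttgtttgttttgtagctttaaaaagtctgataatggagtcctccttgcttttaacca
Cd44 distal region (chr2:102967708-102967907, plus strand): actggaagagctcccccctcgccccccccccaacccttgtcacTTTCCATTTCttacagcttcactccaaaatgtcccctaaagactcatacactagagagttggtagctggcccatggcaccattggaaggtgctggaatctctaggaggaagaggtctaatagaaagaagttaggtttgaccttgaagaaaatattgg
A730009L09Rik distal region (chr16:84583488-84583687, plus strand): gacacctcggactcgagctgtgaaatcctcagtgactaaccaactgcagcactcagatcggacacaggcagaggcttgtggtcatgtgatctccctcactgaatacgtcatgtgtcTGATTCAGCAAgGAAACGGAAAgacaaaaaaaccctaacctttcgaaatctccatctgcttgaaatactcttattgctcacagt
Gtdc1 distal region (chr2:44977406-44977605, plus strand): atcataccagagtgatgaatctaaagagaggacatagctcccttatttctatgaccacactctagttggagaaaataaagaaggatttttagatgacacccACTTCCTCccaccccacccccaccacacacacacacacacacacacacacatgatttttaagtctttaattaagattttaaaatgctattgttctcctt
Rgs2 distal region (chr1:143917129-143917328, plus strand): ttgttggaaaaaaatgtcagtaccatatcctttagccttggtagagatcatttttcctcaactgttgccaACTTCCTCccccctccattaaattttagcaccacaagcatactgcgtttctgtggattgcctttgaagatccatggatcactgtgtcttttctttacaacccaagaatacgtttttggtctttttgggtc
Gadd45g distal region (chr13:51908549-51908748, plus strand): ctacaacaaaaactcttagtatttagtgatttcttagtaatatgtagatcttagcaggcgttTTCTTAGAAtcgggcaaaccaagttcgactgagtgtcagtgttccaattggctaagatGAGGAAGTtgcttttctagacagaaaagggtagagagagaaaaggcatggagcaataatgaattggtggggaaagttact

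Among the strongest windows, Klf6 distal region A held 1 NRF2 match and region B held 7 matches of the NRF2, MAF and AP-1 motifs, some of which share letters. The Map3k7cl window held none of the 24 motifs, the Pkdcc window 1 CEBP match and the Cd44 window 1 ISRE match. The Gtdc1 and Rgs2 windows each held a PU.1 match on the minus strand, and the Gadd45g window held one on the plus strand and 1 STAT match.

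Far intergenic regions had fold enrichments close to those of acetylated regions nearer to genes. In replicate 1 the median fold enrichment over the local background, a ratio given by the authors' caller, was 7.71 for far intergenic regions, against 8.07 for the 5119 near intergenic regions (over 3 kb and up to 50 kb from a TSS), 7.30 for the 10749 intronic regions and 15.8 for the 11620 regions within 3 kb of a TSS. In replicate 2 the medians were 11.7, 12.8, 10.9 and 23.2 in the same order. In the Active Motif library, over the regions that held one of its peaks, they were 7.25, 7.57, 7.36 and 10.2. Far intergenic regions were thus close to other regions outside promoters and below promoter regions in all 3 libraries. All these folds come from called peaks, so sites too weak to be called do not enter the medians. Of the far intergenic regions, 9.59% had a replicate 1 fold of at least 30.8, the level of the strongest 10% of regions outside promoters, and 10.3% reached the corresponding level of 33.8 in replicate 2. Their median width was 1123 bp, against 1205 bp for near intergenic and 1244 bp for intronic regions. Across the far intergenic regions the log2 fold of the replicates had a Pearson correlation of 0.855 and a Spearman correlation of 0.842, given as a description since the regions of a library share its depth. The correlation was 0.859 for near intergenic regions.

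The 10 strongest far intergenic regions were nearest to 8 protein-coding genes, among them Klf6, Cd44 and Ptger4. Both of the highest ranked were upstream of Klf6, which encodes a zinc finger transcription factor of the Krüppel-like family. Klf6 distal region A (chr13:5776210-5781311), 82.7 kb from the Klf6 start, had folds of 79.2 and 56.6 in replicates 1 and 2 and of 56.2 in the Active Motif library. Region B (chr13:5800231-5806274), 58.2 kb from the start, had folds of 74.6, 52.8 and 46.0. Both were among the top 6 of the 1168 regions in each replicate. The widest region was at Cd44, the gene of the hyaluronan receptor (chr2:102965918-102983449, 17532 bp), with folds of 72.6, 50.6 and 37.9, at a distance of 73.0 kb.

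At 4 of the top 10 regions the nearest protein-coding gene had no acetylated promoter, against 369 of all 1168 far intergenic regions. A count over 10 regions does not show that the strongest regions differ from the rest in this. The region nearest to Map3k7cl (chr16:87610012-87617593) had folds of 70.0, 55.9 and 37.5. The promoter of Map3k7cl had no shared acetylated region, and that of Bach1, 85.1 kb away on the other side, had one. Bach1 encodes a heme-regulated repressor. The region at Pkdcc (chr17:83272191-83279678), with folds of 69.6, 54.0 and 39.2, likewise had an unmarked nearest gene and an acetylated gene, Eml4, on the other side. At Atp6v1g3 (chr1:138321170-138328826) the folds were 61.1, 53.1 and 28.1, and the acetylated neighbour was Nek7, the gene of a kinase of the NLRP3 inflammasome, 294.7 kb away. The region at Dleu7 (chr14:61967534-61972929) had folds of 73.0, 47.8 and 32.1 and no acetylated promoter at the nearest protein-coding gene on either side. The region with the highest replicate 1 fold, 84.2, lay 50.5 kb from Gsap, which encodes the gamma-secretase activating protein (chr5:21129185-21142418). Its fold was 48.4 in replicate 2 and 46.2 with the Active Motif antibody. A pair of regions upstream of Ptger4, the gene of the prostaglandin E2 receptor EP4, completed the list. One, 202.7 kb from the start, had folds of 57.3, 54.0 and 37.1, and the other, 253.2 kb from it, had 59.6, 51.1 and 13.9.

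The Active Motif library, which played no part in choosing the regions, marked 582 of the 1168 far intergenic regions (49.8%, 95% Wilson interval 47.0 to 52.7), against 61.5% of all 29277 shared regions. The share was 53.0% in near intergenic and 50.8% in intronic regions. Neither difference passed (two-sided Fisher's exact test with Benjamini-Hochberg adjustment over both comparisons, odds ratio 0.881 and adjusted p = 0.111 against near intergenic, odds ratio 0.961 and adjusted p = 0.518 against intronic regions). The call against near intergenic regions depended on the peaks used. By the same exact test, with the peaks of replicate 2 alone the odds ratio was 0.819 (adjusted p = 0.000350), with those of replicate 1 alone it was 0.870 (adjusted p = 0.0128), and over 10 strata of Cell Signaling strength the Mantel-Haenszel odds ratio was 0.978 (p = 0.829). When the regions outside promoters were sorted into 10 groups of equal size by Cell Signaling strength, 3 of 111 far intergenic regions (2.70%) in the weakest group held an Active Motif peak, 52.8% in the sixth group and all 111 in the strongest. The curves of the near intergenic and intronic regions ran from 2.93% and 3.47% to 100%.

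**Figure D1:**
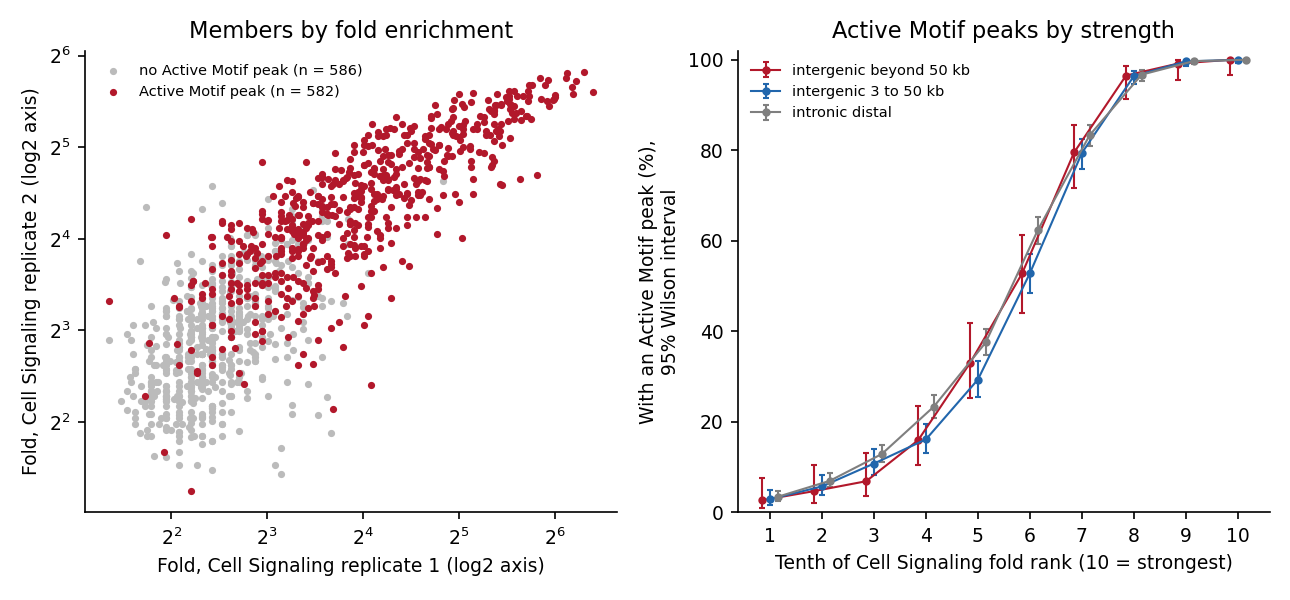
Left, fold enrichment of the 1168 far intergenic regions in Cell Signaling replicate 1 (horizontal) and replicate 2 (vertical), both log2 axes, with 1 point per region coloured by whether it held an Active Motif peak (582) or not (586). Right, the share of regions with an Active Motif peak (%) in 10 groups of Cell Signaling strength, with 95% Wilson intervals; the lines of far intergenic, near intergenic and intronic regions all reached 100% in the strongest group.

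Seen from the single libraries, 2292 peaks of replicate 1 had a far intergenic midpoint (4.08% of its peaks), and 73.4% (71.6 to 75.2) of them overlapped a peak of replicate 2, against 79.2% for near intergenic and 81.2% for intronic peaks. Of the 2141 far intergenic peaks of replicate 2, 57.3% had a partner in replicate 1, between the 52.8% of intronic and the 62.1% of near intergenic peaks. Peaks without a partner were weak, with a median fold of 3.84 in replicate 1, against 6.15 for those with one. Of 1077 far intergenic peaks of the Active Motif library, 98.6% (97.7 to 99.2) overlapped a shared region. The share was much the same for near intergenic (98.9%) and intronic peaks (98.4%) of that library.

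Far intergenic regions became sparser with every step away from genes. Far intergenic sequence made up 749.3 Mb, or 29.3% of the genome without gaps, and held 1.56 regions per Mb, against 11.4 regions per Mb of the whole genome. The density was 3.41 per Mb at 50 to 100 kb (757 regions), 1.34 at 100 to 200 kb (281 regions), 0.559 at 200 to 400 kb (99 regions) and 0.221 beyond 400 kb (31 regions). Between 3 and 10 kb from a TSS it was 12.7. Among the called far intergenic regions, median fold enrichment did not fall with every step, but in each library it was lowest beyond 400 kb. The replicate 1 median was 7.72 at 50 to 100 kb, 7.69 at 100 to 200 kb, 7.72 at 200 to 400 kb and 7.30 beyond 400 kb. In replicate 2 the medians lay between 11.3 and 12.3 from 50 to 400 kb, and the median was 10.2 beyond. In the Active Motif library, over regions with one of its peaks, they lay between 6.82 and 7.67, and the median was 5.97 beyond (13 regions). These differences were not tested. The share with an Active Motif peak was 49.5%, 50.2%, 53.5% and 41.9% in the same order of distance (26.4 to 59.2 for the last). Sites too weak to be called in both replicates do not enter these values. The median distance to a TSS was 77.1 kb and the range 50.1 to 899.5 kb, with 411 regions beyond 100 kb and 20 beyond 500 kb. The nearest TSS belonged to a protein-coding gene for 672 regions (57.5%) and to a long non-coding gene for 496. By chromosome the density ranged from 0.577 regions per Mb of far intergenic sequence on X to 3.41 on chromosome 13, and X was also lowest for all shared regions, at 4.30 per Mb of the chromosome.

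The farthest region, 899.5 kb from Nap1l3 on X (chrX:121497292-121498506), had folds of 7.30 and 15.0 in replicates 1 and 2 and of 4.27 with the Active Motif antibody. A pair of regions 640.8 and 614.1 kb from Robo2, the gene of an axon guidance receptor, were among the 5 farthest. The first (chr16:73768845-73771413) had folds of 27.7, 36.6 and 16.5, and the second had 9.99, 11.7 and 7.25. The remaining ones, near Cypt14 and B3galt2, had folds of 3.84 and 10.8 in replicate 1 and of 6.16 and 7.44 in replicate 2, with no Active Motif peak. None of these 5 had an acetylated promoter at the nearest protein-coding gene on either side. At the 50 kb limit itself, the regions just inside were nearest to Klf4 (50.1 kb from a TSS, fold 5.38 and 4.04), Irf2bpl (50.2 kb, 45.4 and 45.4) and Commd7 (50.2 kb, 10.6 and 15.8), with the fold given for replicates 1 and 2. Those just outside were nearest to Map3k8 (19.2 and 30.4), Gadd45g (18.5 and 29.98) and Fas (4.18 and 8.73).

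**Figure D2:**
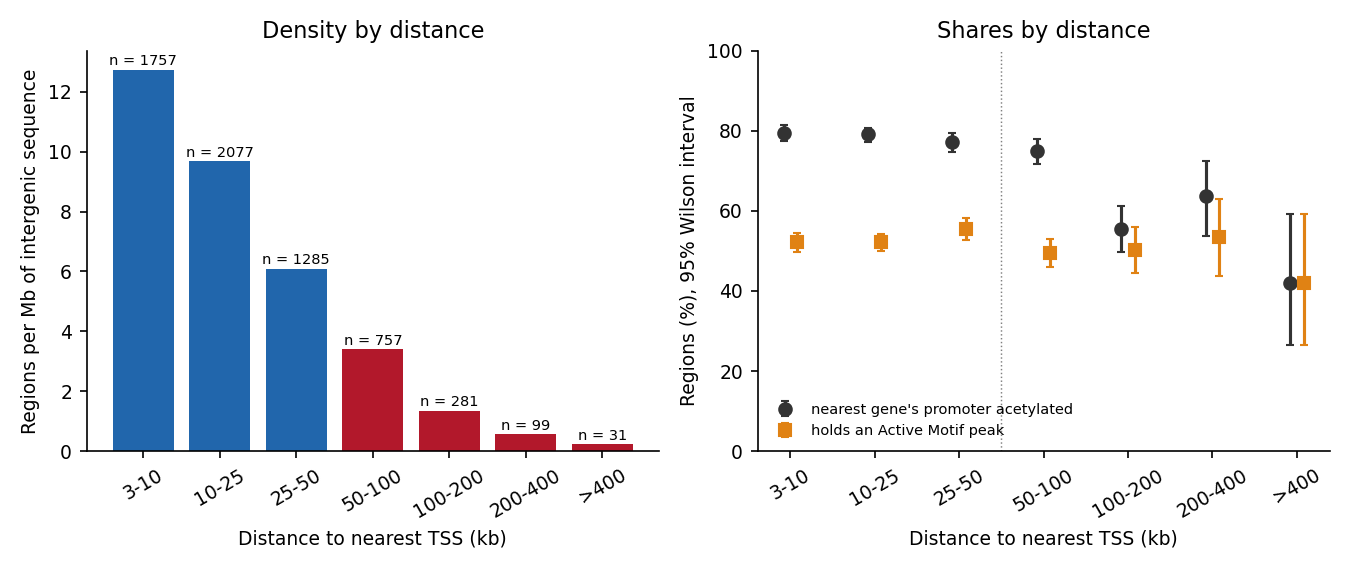
Left, shared acetylated regions per Mb of intergenic sequence (vertical, bars from 0) by distance to the nearest TSS in kb (horizontal), in blue up to 50 kb and in red beyond, with the number of regions above each bar. Right, the share of the same regions (%) whose nearest protein-coding gene had an acetylated promoter (circles) or that held an Active Motif peak (squares), with 95% Wilson intervals; the density fell from 12.7 to 0.221 per Mb and the circles from 79.5% to 41.9%.

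Far intergenic regions less often had an acetylated nearest gene than regions closer in. The promoter of the nearest protein-coding gene, counted as the 2 kb centred on each of its TSS, overlapped a shared region for 799 of the 1168 (68.4%, 65.7 to 71.0), against 87.4% of all shared regions. The share was 78.7% for near intergenic regions (two-sided Fisher's exact test, odds ratio 0.584, adjusted p = 2.27e-13) and 84.0% for intronic regions (odds ratio 0.414, adjusted p = 9.66e-35). The 1168 regions fell to 509 nearest genes, and the status of a gene was counted again for each of its regions. The test treats such regions as independent, so its p-values may be too small. The odds ratio against near intergenic regions stayed between 0.360 and 0.762 under the 11 alternatives, the single replicates included. Over all 21755 protein-coding genes the share was 46.5%. It was 74.9% at 50 to 100 kb, 55.5% at 100 to 200 kb, 63.6% at 200 to 400 kb and 41.9% beyond 400 kb. Of the 369 far intergenic regions with an unmarked nearest gene, 191 (51.8%) had an acetylated protein-coding gene on the other side, as at Map3k7cl and Pkdcc. Neither side was acetylated for 178 (15.2%), against 7.58% of near intergenic and 6.73% of intronic regions, a difference that was not tested.

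PU.1 was the motif that stood out at the summits. It was found, as GAGGAAGT on either strand, in 67 of the 1168 summit windows (5.74%, 4.54 to 7.22), against 23 of 1988 windows of the same length 5 kb away outside any peak (1.16%) and 4.18% of the summits of all 29277 shared regions. This was 4.96 times the flanking share (two-sided Fisher's exact test, odds ratio 5.20, p adjusted over 48 comparisons 1.99e-11). The odds ratio was 3.67 when replicate 2 summits were used and 5.90 in windows of 500 bp, both called. The loose pattern TGANNNNGC, searched under the name NRF2, was the other motif above its flanks (29.9% against 23.6%, adjusted p = 0.00260 by Fisher's exact test, and 28.7% of all regions). A match to it does not name the factor that binds. This call was lost in 5 of the 13 alternatives, replicate 2 summits and the regions of replicate 1 alone among them.

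Other macrophage motifs did not pass against the flanks in windows of 200 bp. CEBP (TTGCNNAA) was found in 12.4% of summit windows and 10.4% of flanks (adjusted p = 0.481 by the exact test), against 9.77% over all shared regions. AP-1 (TGANTCA) was found in 8.48% and 5.99% (adjusted p = 0.106 by the exact test), against 7.78% over all, and RUNX (TGTGGTT) in 5.39% and 5.23% (adjusted p = 1), against 5.35% over all. CEBP and AP-1 passed in windows of 500 bp. DR1, the element of RXR and PPAR heterodimers, was found in 2 of the summit windows and 3 of the flanks (0.437% of all regions). The SMAD motif was found in 4 and 1, RBPJ in 3 and 3 and STAT in 88 and 140, and none of these passed. With so few matches of DR1, SMAD and RBPJ, the test could not decide whether they differed from the flanks. GATA was found in 0.942% of summit windows and 0.956% of flanks. None of the 24 motifs differed between far and near intergenic summits after adjustment by the same Fisher's exact test, and 1 did at an unadjusted p under 0.05 (the E-box CACGTG, 1.88% against 3.34%). Of the far intergenic summit windows, 835 (71.5%) held none of the PU.1, CEBP, AP-1 and RUNX motifs, against 70.2% of the near intergenic ones.

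The PU.1 share was highest in the window on the summit and came down to between 0.771% and 2.31% in the 22 windows from 1 to 3 kb away. In near intergenic regions it was 5.12% at the summit and between 1.07% and 1.72% in the outer windows. The CEBP share was flatter, with 12.8% at 400 bp from the summit and 7.79% to 10.6% in the outer windows, and the AP-1 share was highest 200 bp from the summit, at 10.4%. Over the whole length of the far intergenic regions PU.1 occurred 0.179 times per kb, 3.06 times its rate in far intergenic sequence outside any peak (0.0584 per kb), while the ratio was 1.35 for AP-1, 1.18 for RUNX, 1.17 for CEBP and 1.04 for GATA. In near intergenic regions PU.1 occurred 0.158 times per kb and CEBP 0.539 times, against 0.669 for CEBP in far intergenic regions. Counted over whole regions, 283 of the 1168 (24.2%) held a PU.1 motif, close to the 22.1% of near intergenic and 22.0% of intronic regions. Median folds with and without PU.1 at the summit were 7.69 and 7.72 in replicate 1 and 13.1 and 11.5 in replicate 2. Of the 63 regions with a RUNX match at the summit, 38.1% (27.1 to 50.4) held an Active Motif peak, against 50.5% of those without one, and of the 67 with a PU.1 match 52.2% (40.5 to 63.7) did. These differences were not tested.

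**Figure D3:**
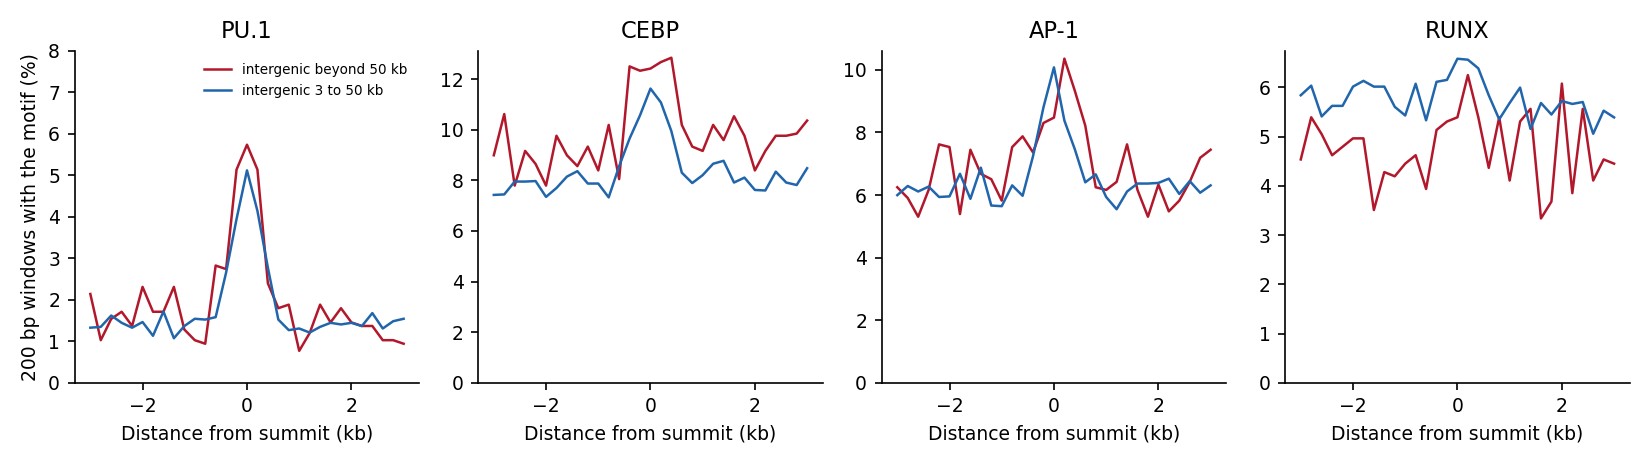
Share of 200 bp windows with a motif (%, vertical, from 0) by distance from the replicate 1 summit in kb (horizontal) for PU.1, CEBP, AP-1 and RUNX, in far intergenic regions (red, n = 1168) and near intergenic regions (blue, n = 5119). PU.1 was at 5.74% and 5.12% on the summit and fell within 1 kb to either side.

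Far intergenic regions were also counted in clusters. Neighbours were joined across gaps of up to 12.3 kb, the next wider gap being 12.6 kb. By this, 712 of the 1168 (61.0%, 58.1 to 63.7) fell into 247 clusters and 456 stood alone. The share was not computed for the other classes of region. Of the clusters, 27 held 5 or more regions. Clustered and single regions had median replicate 1 folds of 8.07 and 7.56 and Active Motif peaks in 52.8% and 45.2%. By nearest protein-coding TSS the regions fell to 509 genes, of which 260 had 1 region and 62 had 5 or more (421 regions).

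The cluster with most regions was made of short pieces. It held 18 regions in 20.1 kb (chr13:12630793-12650877) downstream of Ero1lb, which encodes an oxidoreductase of the endoplasmic reticulum. Its regions were narrow, with a median width of 199 bp, and 7 held an Active Motif peak. The replicate medians of their fold were 11.1 and 14.8. The region at chr13:12650080-12650466 in this cluster held the start of the pseudogene Gpr137b-ps and had a GC content of 68.0%. Pseudogenes were not counted for the distances. Of these 18 regions, 5 had a second copy elsewhere in the genome with at least 95% identity over 80% of their length, against 20 of all 1168 (1.71%). The part of repeated sequence in the count was not tested further, and without this cluster 60.3% of the regions were in clusters. The next was a stretch of 41.2 kb between Cd200r3 and Ccdc80 on chromosome 16, with 15 regions and highest folds of 48.8 and 47.1 in replicates 1 and 2 and of 19.2 in the Active Motif library. A cluster of 10 regions on chromosome 18, of which 8 held an Active Motif peak, lay between Lyzl1, unmarked, and Map3k8, acetylated, which encodes the inflammatory kinase TPL2. A cluster at Cd44 held 8 regions in 61.0 kb.

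Several genes had whole arrays of far intergenic regions. Ptger4 had 13, all upstream and spread from 104.1 to 464.3 kb from its start, and 12 of them held an Active Motif peak. Their replicate 1 folds ranged from 2.56 to 59.6 and their replicate 2 folds from 4.16 to 54.0. Igf1, the gene of insulin-like growth factor 1, had 12, from 52.5 to 167.6 kb upstream, with highest folds of 31.1 and 24.7. Rnd3, which encodes a small GTP-binding protein, had 11, from 53.7 to 359.7 kb downstream of the start. The strongest of them, 58.9 kb from it, had folds of 53.0, 51.3 and 35.8. Zfp608, which encodes a zinc finger protein, had 11 regions of which 2 held an Active Motif peak. Lyzl1 had 10, 6 of them between it and Map3k8, and Ccdc80 had 9, all upstream and within 74.7 kb.

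Transcription factor genes of macrophages were also among these. Klf4, the gene of a Krüppel-like factor of monocytes and macrophages, had 11 regions from 122.8 to 318.8 kb upstream, with replicate 1 folds of 2.77 to 24.2, replicate 2 folds of 4.04 to 27.1 and Active Motif peaks in 6. Runx1, the gene of a hematopoietic Runt domain factor, had 10 regions from 200.3 to 385.3 kb upstream. At 202.9, 207.1, 365.6, 381.7 and 385.3 kb their replicate 1 folds were 50.7, 63.0, 33.1, 25.8 and 45.9, and their replicate 2 folds were 47.1, 45.8, 43.2, 33.1 and 48.9. The Active Motif folds of these 5 were 14.6, 20.8, 19.7, 12.7 and 31.7. The other 5 Runx1 regions had replicate 1 folds of 3.85 to 4.62, so strong and weak regions stood apart in that library. Their replicate 2 folds ranged from 4.68 to 16.4. Of them, the regions at 315.9 and 328.9 kb had replicate 2 folds of 16.4 and 11.3 and Active Motif folds of 5.13 and 4.76. Zeb2, the gene of a zinc finger repressor that maintains macrophage identity in several tissues, had 10 regions in separate groups, 6 of them at 113.8 to 160.7 kb upstream and the other 4 at 1128 to 1254 kb. Of the near group, the region at 119.2 kb had folds of 30.4, 42.7 and 19.6. Of the remote group, the region at 1249 kb had 16.5, 32.4 and 12.8. Klf6 had 6 regions, all from 58.2 to 85.6 kb upstream. Myc, the gene of a growth-promoting factor, also had 6, all from 395.2 to 462.5 kb downstream of its start, and 5 held an Active Motif peak. Id2, the gene of a helix-loop-helix inhibitor, had 4 weak regions (replicate 1 folds of 3.86 to 9.23) without an Active Motif peak. Ptprc, the gene of the leukocyte phosphatase CD45, had 3, at 423.8 to 554.6 kb from the nearest Ptprc start. Starts of long non-coding genes lay closer to them, at 147.2 to 277.9 kb. Only the Ptprc region at 423.8 kb was strong, with folds of 40.4, 41.9 and 25.6. Among the 10 genes with most regions the promoter was acetylated at all but Lyzl1. It was unmarked at Dleu7 with 8 regions and at Cartpt and Kcnrg with 7 each, and the data do not show which gene any of these regions acts on.

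**Figure D4:**
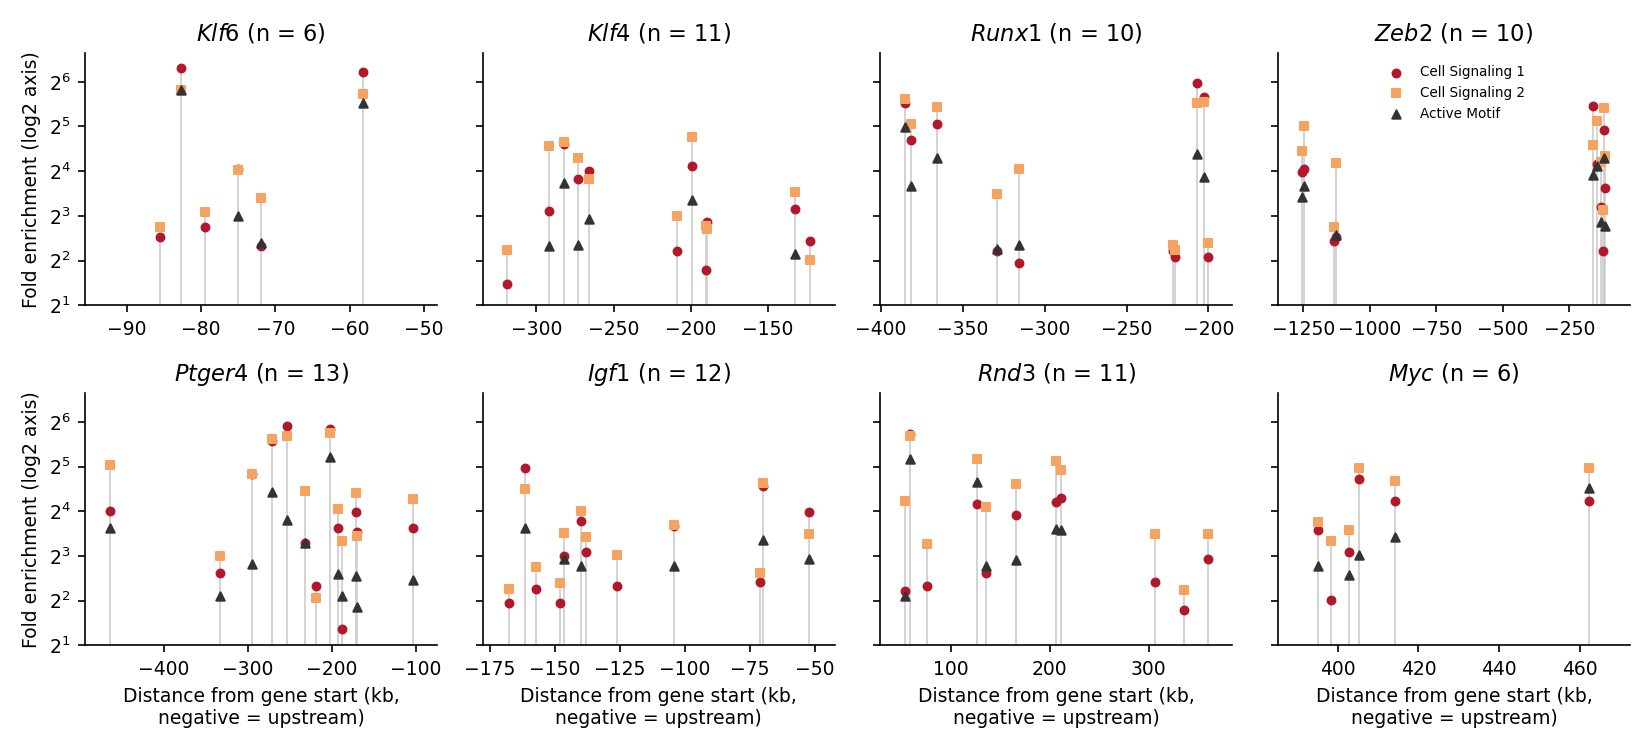
Far intergenic regions nearest to 8 genes: the horizontal axis gives the distance from the TSS of the gene in kb (negative upstream) and the vertical log2 axis the fold enrichment, with circles for Cell Signaling replicate 1, squares for replicate 2 and triangles for the Active Motif library where it had a peak. Strong and weak regions lay side by side, as near Runx1, where 5 had replicate 1 folds of at least 25.8 and 5 of at most 4.62.

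Of the gene lists, macrophage regulators held most far intergenic regions. Among 53 such genes, 12 (22.6%) were nearest to at least 1 region, with 56 regions in all, against 509 of all 21755 protein-coding genes (2.34%). Besides Klf4, Runx1, Zeb2, Klf6, Myc and Id2 these were Tfec, Bach1 and Rbpj with 2 regions each, and Rxra, Bhlhe40 and Maf with 1 each. Rxra, which encodes the retinoid X receptor the study is about, had a region 53.0 kb downstream of the start with folds of 5.77 and 9.16 and no Active Motif peak. Bhlhe40, a helix-loop-helix regulator of AM proliferation, had one with folds of 21.9, 22.7 and 8.10. The 35 AM core genes had 3 regions (8.57% of genes, at Fabp5, Plet1 and Cd2), although all 35 had an acetylated promoter. Of 27 pan-macrophage genes, 3 had regions (11.1%, Cd44, Ptprc and Tgfbr2), and of 23 inflammatory genes 2 did (8.70%, Il1b with 1 region and Il6 with 2). Among 27 lipid metabolism genes only Fabp5 did (3.70%). Genes differ in how much far intergenic sequence lies nearest to them, and the shares of the lists were not tested.

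Among genes of other cell types, none of 18 lung epithelium genes and none of 12 neutrophil genes was nearest to a far intergenic region. Of 17 lymphoid genes Gata3 was (5.88%, against 2.34% of all protein-coding genes), with 1 region at 128.6 kb with folds of 28.1, 37.3 and 10.7. Among 25 developmental regulators Nr2f2 (4% of the list) had 1 region. At promoters, all 8 AM markers had a peak in each library. Lung epithelium genes had a promoter peak in 10 of 18 cases in replicate 1, in 1 in replicate 2 and in 0 with the Active Motif antibody. For lymphoid genes the numbers were 2, 2 and 0 of 17, and for neutrophil genes 2, 3 and 1 of 12. The part of such cells in weak regions of replicate 1 was not tested.

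**Figure D5:**
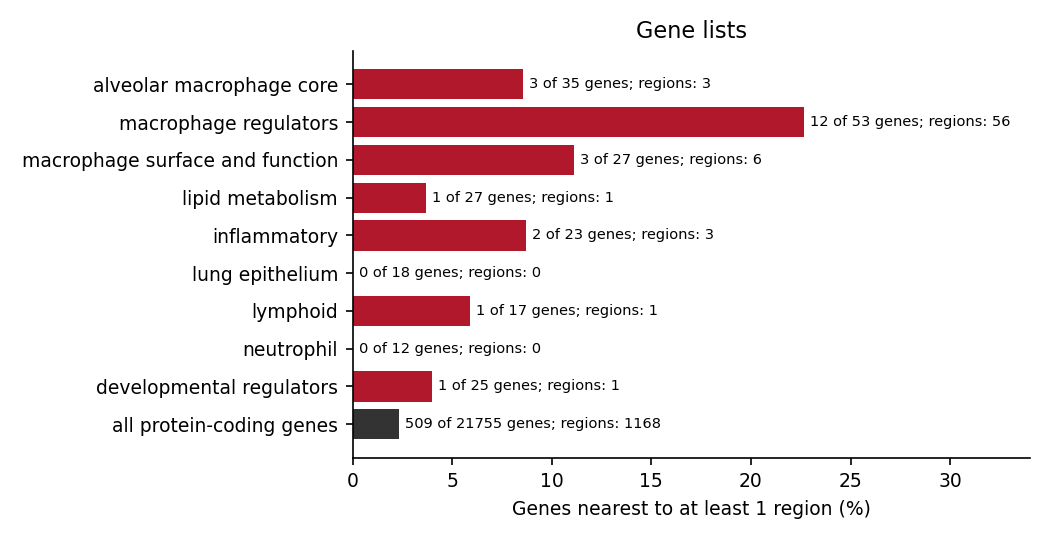
Share of the genes of each list (%, horizontal, bars from 0) that were the nearest protein-coding gene of at least 1 far intergenic region, with the number of genes and of regions beside each bar; the dark bar is the share over all 21755 protein-coding genes, 2.34%. Macrophage regulators had 22.6%, and lung epithelium and neutrophil genes had none.

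A few far intergenic regions overlapped starts of genes of other kinds, which the annotation classes used for the distance do not include. Of the 1168 regions, 25 (2.14%) overlapped the start of such a gene, among them 8 processed pseudogenes, 3 miRNA genes and 3 TEC genes, a class of transcripts that awaits experimental proof. This share was not computed for the other classes of region. The most acetylated miRNA gene was Mirlet7i, whose product let-7i belongs to a family that restrains growth and inflammatory genes. Its region (chr10:122982892-122987298) had folds of 36.5 and 38.1 in replicates 1 and 2 and of 14.5 with the Active Motif antibody, and also held the start of the pseudogene transcript D630033A02Rik. The mature sequence is shown because it identifies the product of the marked gene. It is taken from RefSeq (GRCm38.p6, chr10:122985698-122985719, minus strand), which had an entry for 1 of the 3 miRNA genes, and its seed, bases 2 to 8, is in capitals.
mmu-let-7i-5p: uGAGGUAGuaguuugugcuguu

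At Vis1, a noncoding RNA gene nearest to Zeb2, the folds were 43.8, 24.1 and 15.1, and the regions over the starts of Gm42660 and 5430437J10Rik were those described above at Gsap and Ptger4. CpG-rich regions were also few. By a GC content of at least 0.5 and an observed over expected CpG ratio of at least 0.6, 17 regions (1.46%) resembled a CpG island, against 1.43% of near intergenic regions and 41.9% of the regions within 3 kb of a TSS. One of them lay 191.3 kb from Hpcal1, with folds of 33.1, 32.0 and 12.4. Over all far intergenic regions the median GC content was 43.4%, against 45.5% for near intergenic and 52.3% for promoter regions.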

How the data were processed

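H3K27ac HT-ChIPmentation peaks of sorted AMs were used from 3 libraries. The authors trimmed the reads, mapped them to mm10, removed duplicates and low-quality alignments, and ran the peak caller with input controls at a q-value of 0.05, with 1 list deposited for each library. Tools in the submitters' processing notes are cutadapt, Bowtie2, SAMtools, MACS3, CASAVA and bcl2fastq 2.20.0.422. The deposited peak lists hold a fold enrichment (a ratio over local background), −log10 p- and q-values, a score and a summit for each peak. The lists give no read depth, which sets how many weak peaks a library passes. Intervals cover counting error over regions only.

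The members and the gene and motif lists were chosen with earlier results of these data known. The fold of a region was that of its strongest peak in a library. Bases were read from GRCm38 (mm10) and gene models from GENCODE vM21 basic; TEC genes and pseudogenes were not counted for distances. Peaks were joined by an overlap of 1 bp. The letters of 24 motifs were searched on both strands, with N for any base: GAGGAAGT (PU.1), TTGCNNAA (CEBP), TGANTCA (AP-1), TGTGGTT (RUNX), TGCTGANN (MAF), CACGTG (E-box), TCACGTGA (MiT-TFE), TTCNNNGAA (STAT), GGGTGTGG (KLF), GGGGCGGGG (SP), GCGTGGGCG (EGR), GTCTAGAC (SMAD), CGTGGGAA (RBPJ), TGANNNNGC (NRF2), AGATAAGA (GATA), CCAATCAG (NFY), and the longer DR1, DR4, ISRE, EICE, NFKB, CTCF, HNF1 and NRF1 elements. MAF, NRF2 and AP-1 overlap, as do E-box and MiT-TFE, and ISRE and EICE. Shares were compared by Fisher's exact test with Benjamini-Hochberg adjustment at a threshold of 0.05 (scipy 1.17.1). Second copies were found with minimap2 2.31. Functions were tested on simulated data. Regions named were the 10 with the best worse rank of fold over both replicates, the 5 farthest, the 5 largest clusters, the 10 genes with most regions, 3 regions on each side of 50 kb, listed genes with 3 or more regions and those of other cell types, and the strongest regions with a start of another gene class or a CpG-rich sequence; others are given as examples chosen after their values were seen. Of 238 listed symbols, 237 matched the annotation. Of the clusters and the CpG-rich regions this rule names, 1 each is not reported here.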

Additional observations from a re-analysis of the deposited data

How the results depend on the processing

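Regions made from all peaks of 1 replicate, with or without a partner in the other, numbered 2141 to 2292. They held an Active Motif peak in 27.9% to 29.1% and were clustered in 74.3% to 76.7%. They gave odds ratios of 0.819 to 0.870 for the Active Motif share against near intergenic regions (both called) and 1 to 2 motifs above the flanks. With replicate 1 alone 3 motifs differed from near intergenic summits, and with windows of 500 bp 1 did. Keeping peaks with a −log10 q of at least 5 gave an Active Motif share of 61.7%, an odds ratio of 0.861 (called by Fisher's exact test, adjusted p = 0.0473) and 53.2% in clusters. When replicate peaks had to overlap by 50% of each, 735 regions remained, with 66.1%, 0.834 (called, exact adjusted p = 0.0371), 49.7% in clusters and 1 motif. A limit of 100 kb gave 411 regions, 53.5% in clusters and 1 motif. A limit of 25 kb gave 2453 regions, an Active Motif share of 52.8%, an odds ratio of 1.02 (the direction turned, exact adjusted p = 0.660) and 8 motifs. Distances to protein-coding genes alone gave 2734 regions, 68.2% in clusters and 4 motifs, and distances to every gene of the annotation gave 555 regions, 56.9% and 1 motif. Active Motif peaks with a −log10 q of at least 5 were in 39.0% of the regions. Stitching at 5 kb left 46.8% in clusters. Windows on replicate 2 summits gave 1 motif and windows of 500 bp gave 6. The cause of these changes was not tested. The odds ratio of the nearest gene's acetylation kept its direction and call under all 11 alternatives run, and that of PU.1 over flanks did so under all 13. Alternatives chosen after seeing the data counted TEC genes (1077 regions) or used the comprehensive annotation (1055 regions). No paired analysis was possible because no test compares groups of samples: the tests are over regions, the Active Motif group is 1 library, and no peak list of the inputs was used.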
